A study of Mus musculus with 2 samples.

Results

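Solute carrier genes were compared between CD5+ gamma delta T cells of LAT3YF and wildtype mouse spleens. The set holds every gene whose platform symbol starts with Slc and a number, other than the ferroportin gene Slc40a1, and whose probe names 1 gene. This gave 54 genes from 27 families among the 4331 genes measured. The study consists of 2 arrays with 2 colours each. LAT3YF and wildtype cells share each array, 1 population per channel, and the dyes are reversed between the + polarity and the - polarity array. Both populations came from spleens by positive selection on anti-CD5 MACS beads followed by sorting on a FACSDiva, and total RNA was labelled. LAT is the adaptor that carries the signal of the T cell receptor to downstream enzymes, and 3YF denotes tyrosine-to-phenylalanine replacements in it. The labels give no age, sex or number of mice, and nothing in them ties the arrays to separate animals, so the pair was counted as 1 replicate and no test between the populations was made.

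Solute carriers are membrane proteins that move small molecules down or against gradients without splitting ATP themselves. Dividing lymphocytes use them to take up glucose, amino acids and metals, and phagocytes use some of them to recycle iron. Each family moves a class of substrate, and carriers of the Slc25 family sit mainly in the inner mitochondrial membrane.

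All values are log10 ratios of the 2 populations, with the sign of the - polarity array turned so that both arrays run the same way. A gene's value is the mean over the arrays ± SD (n = 2 arrays of the same comparison), and the SD is the spread between these arrays. Whether it holds more than technical error is unknown, since the labels do not say if both used the same RNA extracts. Which dye each population carried, and which of them is the numerator, is named in no source used here, so positive and negative stand for the 2 populations without saying which is LAT3YF. The positive side is the one on which Il13, a type 2 cytokine gene, lay at 1.01 ± 0.055 and Gata3, the transcription factor of type 2 T cells, at 0.593 ± 0.0057. A gene is called when its mean is at least 2-fold (0.301) and both arrays have the same sign. Folds take the values as log10, an assumption since the base is not stated. Read as log2, the largest ratio of the set would be 1.77-fold in place of 6.61-fold.

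Of the 54 solute carrier genes, 4 were called on the negative side, 1 was called on the positive side and 49 were not called. The called share was 9.26%, against 8.75% of all genes, so the number of large differences was near the background. On the negative side 7.41% of the carriers were called against 5.03% of all genes, and on the positive side 1.85% against 3.72%. The 4 negative genes were the metal transporter genes Slc11a1 and Slc11a2, the glutamine and neutral amino acid carrier gene Slc38a2, and Slc35f5. The positive gene was the zinc importer gene Slc39a6. Smaller ratios leaned to the negative side. A mean below 0 was found for 38 of the 54 genes (70.4%), against 48.8% of all genes. Both arrays were negative for 26 of the 54 (48.1%, against 29.3% of all genes) and both positive for 11 (20.4%, against 30.2%). The median over the set was -0.0341, against 0.00230 over all genes, while the median size was 1.18-fold in both. The share below 0 was 61.1% with the + polarity array alone and 66.7% with the - polarity array alone. At a threshold of 1.5-fold with arrays alike in sign, 8 carriers passed (14.8%, against 17.9% of all genes), 2 of them positive (8.43% of all genes passed on that side) and 6 negative (9.44%). In 44 of the 54 genes (81.5%, against 80% of all genes) the mean lay within 1.5-fold.

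**Figure D1:**
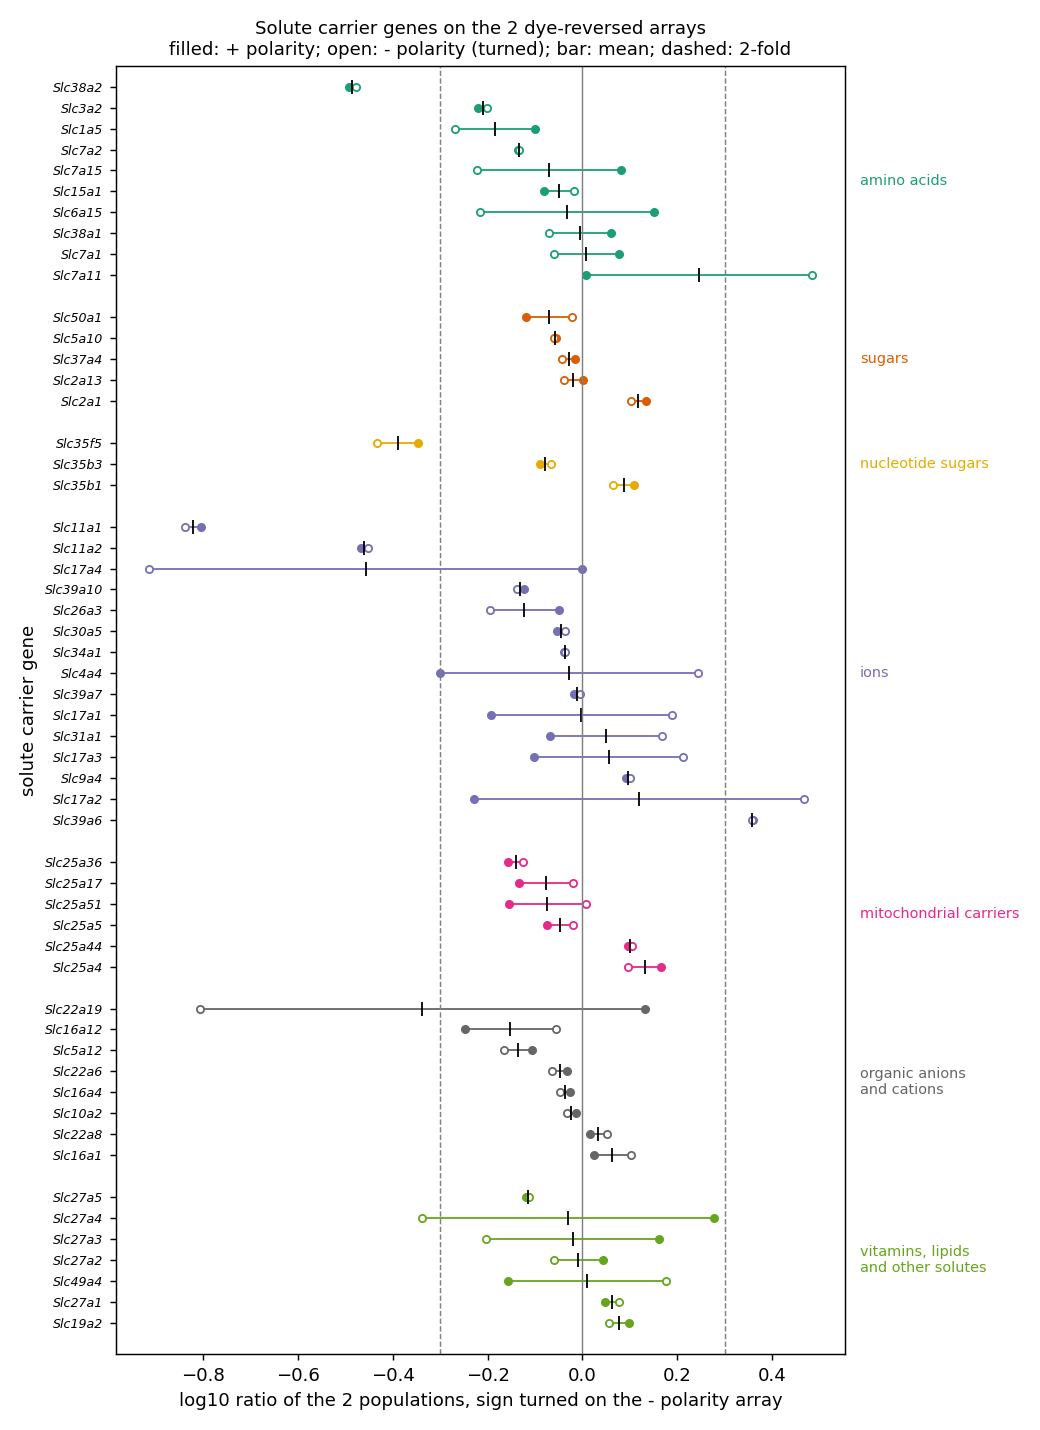
Log10 ratio of each of the 54 solute carrier genes (x axis) on the + polarity array (filled) and on the turned - polarity array (open), with the mean as a bar and genes grouped by substrate on the y axis. Slc11a1 has the lowest mean at -0.821, the lowest single value is -0.914 for Slc17a4 on the - polarity array, and Slc39a6 is the only gene with both arrays to the right of the 2-fold line.

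Of the 10 amino acid carriers, 4 were past 1.5-fold with arrays alike in sign (40%, against 17.9% of all genes). Of these, 3 were negative (9.44% of all genes passed on that side) and 1 positive (8.43%). Promoters are shown for 3 genes of amino acid supply, 1 on the negative side and 2 on the positive. These are Slc38a2, the leading amino acid carrier, Slc7a11 and Asns. Slc7a11 was the only amino acid carrier past 1.5-fold on the positive side, with a mean smaller than its SD. Asns, asparagine synthetase, was 1 of 2 called genes of the amino acid enzymes, and the promoter of the other, Psat1, is not shown. Capitals mark TGATGNAA, the core of the element that the stress factor ATF4 binds with C/EBP proteins, searched on both strands in the 250 bases before the annotated start (RefSeq, GRCm38.p6, written 5′ to 3′ along the gene's strand). The Slc38a2 window is chr15:96699729-96699978 on the - strand, that of Slc7a11 is chr3:50443614-50443863 on the - strand and that of Asns is chr6:7693210-7693459 on the - strand.
Slc38a2: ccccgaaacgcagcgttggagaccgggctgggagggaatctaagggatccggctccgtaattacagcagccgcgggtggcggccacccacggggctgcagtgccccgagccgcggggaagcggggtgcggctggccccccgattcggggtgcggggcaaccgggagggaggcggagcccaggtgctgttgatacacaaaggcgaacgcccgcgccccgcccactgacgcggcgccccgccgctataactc
Slc7a11: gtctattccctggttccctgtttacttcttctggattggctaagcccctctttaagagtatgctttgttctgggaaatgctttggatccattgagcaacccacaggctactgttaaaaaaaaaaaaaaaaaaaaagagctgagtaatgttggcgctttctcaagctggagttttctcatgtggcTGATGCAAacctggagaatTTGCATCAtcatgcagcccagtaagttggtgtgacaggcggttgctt
Asns: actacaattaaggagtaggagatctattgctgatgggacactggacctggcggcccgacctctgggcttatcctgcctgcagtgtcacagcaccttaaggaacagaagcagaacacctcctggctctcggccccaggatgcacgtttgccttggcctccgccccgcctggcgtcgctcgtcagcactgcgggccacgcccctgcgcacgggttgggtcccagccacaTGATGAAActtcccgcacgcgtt
The Slc7a11 window holds the letters in both orientations, starting 66 and 47 bases before the start, and the Asns window holds them once, 23 bases before it. The Slc38a2 window does not hold them, and bases outside these windows were not searched. Of all 32851 promoter windows of this length, 3.45% hold the motif. Of the 54 carriers 42 are in the promoter table, also with 54 windows, of which 4 (7.41%) hold it, those of Slc7a11, Slc17a1, Slc49a4 and Slc50a1. The means of Slc7a11 and Slc49a4 were above 0, and those of Slc17a1 and Slc50a1 below 0. Of 16 measured enzymes and sensors of amino acid supply, 14 are in the promoter table. They have 16 windows, of which 1 (6.25%), that of Asns, holds the motif. A link between the motif and the sign of a ratio was not tested. A match is a description of these letters and not a binding site.

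Slc38a2 encodes a sodium-coupled carrier of glutamine, alanine and other small neutral amino acids. Its ratio was -0.492 on the + polarity array and -0.478 with the dyes reversed, a mean of -0.485 ± 0.0098 (3.06-fold). Both arrays were past 2-fold. Slc3a2, the heavy chain CD98 that brings several amino acid exchangers to the cell surface, was at -0.220 and -0.201, a mean of -0.210 ± 0.014 (1.62-fold). Slc1a5, a glutamine and neutral amino acid exchanger, was at -0.0997 and -0.268, a mean of -0.184 ± 0.12 (1.53-fold). Both lay below the 2-fold threshold, and the arrays agreed more closely for Slc3a2 than for Slc1a5.

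Slc7a11, the cystine and glutamate exchanger that feeds glutathione synthesis, was the highest amino acid carrier at 0.246 ± 0.34 (1.76-fold). Its ratio was 0.00839 on the + polarity array and 0.484 with the dyes reversed, so its mean came almost wholly from 1 array and was smaller than its SD. It is the member nearest below the 2-fold line with the same sign on both arrays. Slc7a2, a carrier of cationic amino acids such as arginine, was at -0.134 ± 0.0016, with -0.135 and -0.133 on the arrays. Slc15a1, a carrier of small peptides, was at -0.0493 ± 0.045. The cationic amino acid carrier gene Slc7a1 was at 0.00794 ± 0.097 and Slc38a1, a close relative of Slc38a2, at -0.00487 ± 0.092. The 3 probes of Slc38a1 gave -0.0604, 0.0201 and 0.0256, all near 0. Slc6a15, a neutral amino acid carrier, was at -0.0319 ± 0.26 and Slc7a15 at -0.0704 ± 0.22. Both were positive with + polarity and negative with - polarity. Over the 10 genes, 8 means were below 0 and the median was -0.0599.

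Enzymes and sensors of amino acid supply were set beside these carriers. The list has 16 measured genes, with a median of 0.0304. Of these, 2 were called positive (12.5%, against 3.72% of all genes) and 0 negative (against 5.03%). The called genes were Asns at 0.357 ± 0.033 (2.27-fold) and Psat1, an enzyme of serine synthesis, at 0.344 ± 0.013 (2.21-fold). Atf4, which encodes the transcription factor that activates both, was at -0.0655 ± 0.032. The called amino acid carrier gene and the called enzyme genes thus had opposite signs.

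Ion and metal carriers were the largest group, with 15 genes, and held both the lowest and the highest mean of the set. In this group 2 genes were called negative (13.3%, against 5.03% of all genes) and 1 positive (6.67%, against 3.72%). Slc11a1, also known as NRAMP1, is the metal transporter of the phagosomes of macrophages. Its ratio was -0.804 and -0.837 on the arrays, a mean of -0.821 ± 0.023 (6.61-fold). Its relative Slc11a2 (DMT1), which carries ferrous iron out of endosomes in many cell types, was at -0.468 and -0.453, a mean of -0.460 ± 0.011 (2.88-fold). For both genes each array was past 2-fold and the arrays differed little. On the positive side, Slc39a6, a zinc importer of the ZIP family, was at 0.359 and 0.358, a mean of 0.358 ± 0.0010 (2.28-fold). Its probes, 2 in number, gave 0.310 ± 0.0044 and 0.407 ± 0.0064, both past 2-fold. It is also the called member nearest to the 2-fold line.

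The other zinc and copper carriers had small ratios. Slc39a10, another ZIP importer at the cell surface, was at -0.131 ± 0.0094 (1.35-fold), opposite in sign to Slc39a6 on both arrays. Slc39a7, which releases zinc from the endoplasmic reticulum, was at -0.0118 ± 0.0093, and Slc30a5, which loads zinc into the secretory pathway, at -0.0449 ± 0.013. Slc31a1, the copper importer, was at 0.0505 ± 0.17 with opposite signs on the arrays. So 1 of the 3 measured zinc importer genes was called, where 8.75% of all genes were.

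Among 10 measured genes of iron, zinc and copper handling other than carriers, 2 were called negative (20%, against 5.03% of all genes). None was called positive (against 3.72%), and the median was -0.0313. Ftl1, a ferritin light chain that stores iron, was at -0.391 ± 0.012 (2.46-fold). Tfr2, a transferrin receptor of iron-sensing cells, lay on the threshold at -0.301 ± 0.056, was -0.262 on the + polarity array, and was not called once the arrays were centred. Tfrc, the transferrin receptor that feeds iron to Slc11a2 in dividing cells, was at -0.0420 ± 0.048, and the metallothionein gene Mt1, which responds to zinc, at -0.0349 ± 0.022. Markers of macrophages had the same sign as Slc11a1 and Slc11a2, as did most NK cell and B cell markers, given below. Of 10 measured myeloid and red pulp macrophage markers 9 were called negative (90%, against 5.03% of all genes). Over all 10 the ratios ran from -1.05 to -0.0221, with a median of -0.810. Adgre1 was at -1.05 ± 0.035, Vcam1 at -1.02 ± 0.058 and Mrc1 at -0.982 ± 0.066. The part of these cells in the ratios of the metal carriers was not tested, and fewer cells of a type cannot be told apart from less RNA per cell.

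The remaining ion carriers were not called, and in several the arrays disagreed. Slc17a4, a carrier of organic anions and phosphate, had a ratio of exactly 0 with + polarity and -0.914 with - polarity. Its mean of -0.457 ± 0.65 was past 2-fold in size but did not have the same sign on both arrays. Its relatives Slc17a1, Slc17a2 and Slc17a3 were at -0.00250 ± 0.27, 0.119 ± 0.49 and 0.0552 ± 0.22, each negative with + polarity and positive with - polarity. Slc4a4, a sodium bicarbonate cotransporter, was at -0.0283 ± 0.39, again with opposite signs. The sodium-proton exchanger gene Slc9a4 had arrays that agreed, at 0.0966 ± 0.0063, as did the phosphate carrier gene Slc34a1, at -0.0373 ± 0.0019. Slc26a3, a chloride-bicarbonate exchanger, was at -0.122 ± 0.10. Over the 15 genes the median was -0.0283.

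None of the 5 sugar carriers was called, where 8.75% of all genes were. Slc2a1 (GLUT1), the main glucose importer of activated lymphocytes, was the highest at 0.118 ± 0.023 (1.31-fold), with 0.135 and 0.102 on the arrays. It was the only sugar carrier with a mean above 0. Slc50a1, a sugar carrier of the SWEET family, was the lowest at -0.0702 ± 0.070. Slc5a10, a sodium-coupled sugar carrier, was at -0.0573 ± 0.0039, Slc37a4, which moves glucose 6-phosphate into the endoplasmic reticulum, at -0.0288 ± 0.020, and Slc2a13, an inositol carrier, at -0.0192 ± 0.028. Of 19 measured genes of glucose use and lactate, 15 had a mean above 0 and 4 below (2217 of all 4331 genes were above 0). In this list 9 genes passed 1.5-fold on the positive side with arrays alike in sign, against 8.43% of all genes. On the negative side 0 passed, against 9.44%. At 2-fold 1 gene of the list was called positive, against 3.72% of all genes. It was the glycolytic enzyme gene Tpi1 at 0.427 ± 0.039 (2.67-fold), and the median of the list was 0.143. Bsg, the chaperone of lactate carriers, was at 0.114 ± 0.00035. Slc16a1 (MCT1), the lactate carrier it escorts, was at 0.0634 ± 0.055, with 0.0243 and 0.102 on the arrays. The ratios of the glucose importer and the lactate carrier were thus positive on both arrays and below 1.5-fold.

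The Slc35 family, known for nucleotide sugar carriers of the Golgi and endoplasmic reticulum, had 3 genes, which are grouped under that name by family and not by their own substrates. Slc35f5, whose substrate is not established, was called negative. It was -0.346 with + polarity and -0.434 with - polarity, a mean of -0.390 ± 0.062 (2.45-fold), with each array past 2-fold. Slc35b3, which carries the sulfate donor PAPS into the Golgi, was at -0.0785 ± 0.016 and Slc35b1 at 0.0870 ± 0.031, so the family members had different signs, each alike on both arrays.

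Mitochondrial carriers of the Slc25 family had small ratios, and 0 of 6 were called, where 8.75% of all genes were. Slc25a4 and Slc25a5 encode exchangers of ADP and ATP. Slc25a4 was the highest of the group at 0.131 ± 0.050 (1.35-fold) and Slc25a5 was at -0.0467 ± 0.038. Slc25a44, a carrier of branched-chain amino acids, was at 0.0999 ± 0.0060. Slc25a36, a carrier of pyrimidine nucleotides, was the lowest at -0.141 ± 0.022 (1.38-fold). Slc25a51, the NAD carrier, was at -0.0743 ± 0.11 with opposite signs on the arrays, and Slc25a17, which works in peroxisomes in spite of its family, at -0.0768 ± 0.081. The 2 ADP and ATP exchanger genes differed in sign, each with the same sign on both arrays.

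Nucleoside carriers of the Slc28 and Slc29 families were not analysed here, since none of the 54 genes belongs to them. Of 14 measured genes of nucleoside salvage and nucleotide synthesis, 2 were called positive (14.3%, against 3.72% of all genes). None was called negative (against 5.03%), and the median was 0.0480. The called genes were Rrm2, a subunit of ribonucleotide reductase, at 1.11 ± 0.25 and the thymidine kinase gene Tk1 at 0.361 ± 0.013 (2.30-fold).

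None of the 8 carriers of organic anions and cations was called, where 8.75% of all genes were. Slc22a19, a carrier of organic anions, had the largest mean at -0.337 ± 0.66, but it was 0.132 with + polarity and -0.806 with - polarity, so its signs differed. Slc16a12, a creatine carrier, was at -0.152 ± 0.14 (1.42-fold) and Slc5a12, a sodium-coupled lactate carrier, at -0.136 ± 0.042 (1.37-fold). The other organic ion carriers, apart from Slc16a1, lay between -0.0479 for Slc22a6 and 0.0340 for Slc22a8, with Slc16a4 at -0.0363 and the bile acid carrier gene Slc10a2 at -0.0230. For these 4 genes both arrays had the same sign.

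The 7 carriers of vitamins, lipids and other solutes also gave no call, where 8.75% of all genes were called. Slc27 proteins take up fatty acids and join them to coenzyme A. Slc27a5 was the lowest at -0.115 ± 0.0053 (1.30-fold) and Slc27a1 was at 0.0628 ± 0.021. Slc27a4 was at -0.0302 ± 0.44, and its probes, 2 in number, disagreed. One gave 0.185 ± 0.057 with the same sign on both arrays, and the other gave 0.330 with + polarity and -0.821 with - polarity. The 2.70-fold gap between them was the largest among the 5 carriers with several probes. Slc27a2 was at -0.00871 ± 0.073 and Slc27a3 at -0.0200 ± 0.26, both with opposite signs on the arrays. The thiamine carrier gene Slc19a2 was the highest of the group at 0.0778 ± 0.030, and the lysosomal carrier gene Slc49a4 was at 0.00930 ± 0.24.

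**Figure D2:**
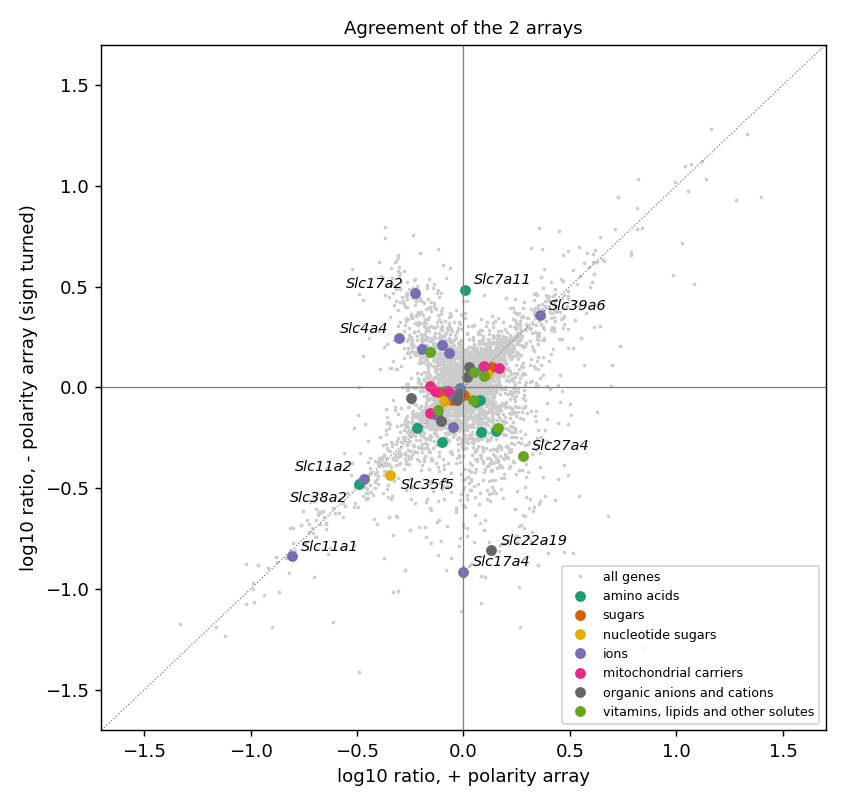
Log10 ratio on the + polarity array (x axis) against the turned - polarity array (y axis) for all 4331 genes (grey) and the 54 solute carrier genes (coloured by substrate), with a dotted line of equal values. The 5 called carriers lie near that line, while Slc17a4 and Slc22a19 lie near or right of 0 on the x axis and at -0.914 and -0.806 on the y axis.

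The agreement between the arrays set how far these values carry. In 37 of the 54 carriers (68.5%, against 59.6% of all genes) both arrays had the same sign, and in 35 (64.8%, against 52.2%) the mean was larger in size than the SD. All 5 called carriers were among these. In 4 carriers (7.41%, against 4.18% of all genes) the signs were not alike and the part of the ratio that reversed between the arrays was past 2-fold. These were Slc17a2, Slc17a4, Slc22a19 and Slc27a4. With the - polarity array alone, 10 carriers were past 2-fold, where 742 of all 4331 genes (17.1%) were. These 10 were the 5 called ones and Slc7a11, Slc17a2, Slc17a4, Slc22a19 and Slc27a4. With the + polarity array alone it was the 5 called carriers, where 10.4% of all genes were past 2-fold. Across the 54 carriers the arrays correlated at Pearson r = 0.318, against 0.403 across all genes, as a description in which genes share the same 2 hybridisations. The deposited ratios had medians of -0.00283 and 0.00101 on the + and - polarity arrays.

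Other transporter classes gave 1 call in all, where 8.75% of all genes were called. Of 9 genes of the ABC family, which holds ATP-driven transporters and a few soluble relatives, 0 were called. Of 9 P-type ATPases, Atp8a1, a lipid flippase, was called negative at -0.385 ± 0.38, with only -0.114 on the + polarity array. None of 5 V-ATPase genes, which acidify the compartments where Slc11a1 and Slc11a2 work, was called, and all 5 means were below 0 with a median of -0.0643. None of 8 aquaporins was called.

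Most of the markers listed for other spleen cells had means below 0, and most of the called carriers were negative too. Of 5 measured NK cell markers 4 were called negative (median -0.731, range -0.979 to -0.0723), of 7 B cell markers 4 (median -0.482, range -0.719 to 0.193) and of 5 erythroid and platelet markers 2 (median -0.125, range -0.604 to 0.0685). Of all genes 5.03% were called negative. The lowest NK cell markers were Klrd1 (-0.979), Klrb1c (-0.755) and Klra1 (-0.731), while Ncr1 (-0.0723) was not called. Whether the sorted T cells themselves express these NK cell markers was not tested. The lowest B cell markers were Ighm (-0.719), Cd72 (-0.568) and Blnk (-0.505), while Cd22 (0.193) was positive on both arrays. Of the erythroid and platelet markers Epor was at -0.604 and the globin gene Hba-a1 at -0.388. Pf4 (-0.125) had opposite signs on the arrays, and Gata1 (0.0685) was positive on both. Of 8 T cell markers 0 were called negative and 1, Cd5, positive at 0.614 ± 0.0077 (against 3.72% of all genes), with a median of 0.0922. Cd5 is the gene of the sorting marker. Lat, the altered gene, was at 0.179 ± 0.010 and was not called. Ratios carry no level, so the identity of the sorted cells could not be checked, and the part of other cells in the carriers' ratios was not tested.

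**Figure D3:**
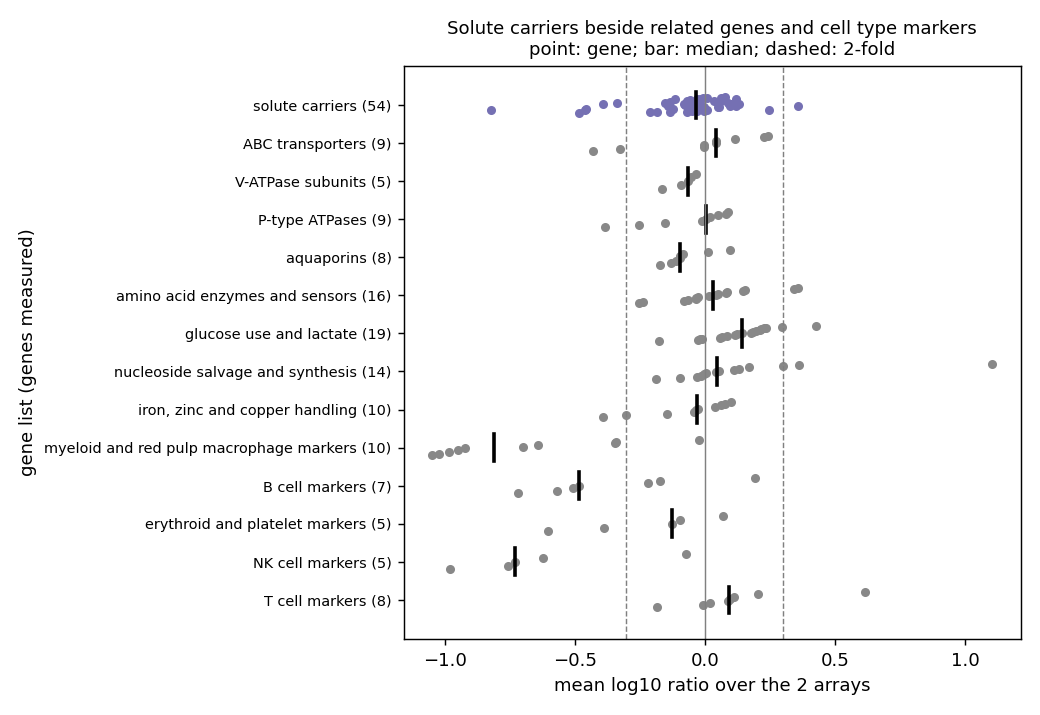
Mean log10 ratio of each gene (x axis) for the solute carriers and for lists of related genes and cell type markers (y axis, with the number of genes measured), with the median of each list as a bar. The solute carriers centre at -0.0341, the glucose use genes at 0.143 and the macrophage markers at -0.810.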

How the data were processed

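Per the labels, RNA of splenic CD5+ gamma delta T cells (LAT3YF and wildtype) was hybridised on 2 dye-reversed arrays. The authors deposited 1 log ratio per probe and array, read here as log10. The sources used here do not name the scanner, background correction, normalization or numerator. Of 8014 probes, 4654 name 1 gene, 73 several and 3287 none; only the first kind was used. The 54 carriers had 60 probes, all 54 were found in the RefSeq gene table under the same symbol, and 1 further probe naming a carrier and another gene was left out. The - polarity array was multiplied by -1, probes of a gene were averaged and the arrays were averaged. A call needed a mean of at least 2-fold and the same sign on both arrays, a rule of size tested on simulated data. Ratios carry no depth, so precision is limited by how few arrays there are. Genes named are all members and the called genes of each related list, up to 3 per side, with further genes of these lists named after their values were seen. Substrate groups follow the carrier families. The members and lists were chosen with earlier results of these data known. Alternatives were single arrays, centring, scaling, other probe rules, log bases and thresholds. Python 3.11.15, pandas 2.3.3 and NumPy 2.4.6 were used.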

Additional observations from a re-analysis of the deposited data

How the results depend on the processing

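The 5 called carriers were also the ones called with each array centred or scaled, with the probe of largest ratio, with each array past 2-fold on its own and with the mean larger than the SD. The count with a single array ranged from 1 to 3 on the positive side and from 4 to 7 on the negative side. Of all 4331 genes, 228 to 306 were called positive and 224 to 436 negative with a single array. The median of the set then ranged from -0.0443 to -0.0411. The number on the positive side was 0 with genes of 1 probe only (Slc39a6 has more), at 3-fold and with values read as log2 or natural logs, and 2 at 1.5-fold. On the negative side it was 2 at 3-fold, 0 as log2, 1 as natural logs (Slc11a1) and 6 at 1.5-fold. Counting the exact 0 of Slc17a4 as either sign, an alternative chosen after seeing the data, gave 5. The median was -0.0411 with the probe of largest ratio, -0.0373 with genes of 1 probe, -0.0103 as log2 and -0.0148 as natural logs, and the other settings moved it by less than the spread between the arrays. No called carrier changed sign under any setting run, which is no check, since a call already needs the same sign on both arrays. Thresholds and log bases cannot change a sign. Each ratio pairs the 2 populations on 1 array, and with 1 replicate of that pair no paired test was possible.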
